A study of Mus musculus with 6 samples.

Results

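The cytosolic ribosomal protein genes encode the proteins of the large (Rpl) and small (Rps) ribosomal subunits. They were chosen by symbol: Rpl or Rps followed by a digit, together with Rplp0, Rplp1, Rplp2 and Rpsa, without pseudogenes and without the ribosomal S6 kinases, and with at least 500 unique molecular identifiers (UMIs, each standing for 1 captured RNA molecule) in the deposited matrix. The rule found 86 symbols, of which 83 passed the minimum, out of 32285 genes measured. By symbol, 49 of them are Rpl genes and 34 are Rps genes or Rpsa. The rule used the gene names and the UMI total and no difference between cells. Rps27rt with 2776 UMIs, Rps19bp1 with 6214 and Rpl7l1 with 7959 were the lowest inside the minimum, and Rpl10l with 0, Rpl3l with 27 and Rpl39l with 338 lay outside it. The next lowest, Rpl31, had 66729 UMIs and the highest, Rpl13, had 748031. Rps19bp1 passed by its symbol only, since it encodes a protein that binds ribosomal protein S19 and is not a subunit of the ribosome.

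The cells came from tumors that the MOC-2 oral carcinoma line of the mouse formed when grown under the skin of male mice. 3 tumors had received an experimental agent and 3 its vehicle, each injected into the tumor 24 h before collection. The labels do not say which of the agents named in the protocol the treated tumors received. Live cells were sorted, labelled with cell multiplexing oligonucleotides, pooled and sequenced by the 10x 3′ method. The 14818 cell barcodes of the single matrix fall into 6 sets by their suffix, with 7354560 to 38798439 UMIs per set and no barcode shared between sets. The labels give no map from barcode suffix or multiplexing oligonucleotide to tumor, and for that reason no treated cells were compared with vehicle cells. Values of the 6 sets show spread within the pool and are not replicates of a condition.

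Each ribosome holds 1 copy of nearly every one of these proteins, and cells make them in matched amounts. Their mRNAs are short, very abundant, and begin with a run of pyrimidines (the 5′ terminal oligopyrimidine tract) through which their translation is set by growth signals. Ribosome building begins in the nucleolus and is raised in proliferating and tumor cells. A few members have paralogs that can be used in place of the parent protein, and Rpl5 and Rpl11 also bind Mdm2, the ubiquitin ligase of p53, when they are outside the ribosome.

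The start of these genes is shown because the pyrimidine tract is what most of them share in sequence beyond their products. Pyrimidine hexamers were searched as the letters CTTTCC, the form with a longer T run CTTTTC, its continuation CTTTTT and the form that begins one step earlier, CTCTTT, on each gene's own strand from 20 bases before to 50 bases after its RefSeq start (build GRCm38.p6), with overlapping matches counted once per gene. 36 of the 63 members with a start in that table held one, or 57.1%, against 10.45% of all 27025 genes in the table, 9.20% of 8377 other measured genes and 8.70% of 69 mitochondrial ribosomal protein genes. The windows below run 5′ to 3′ with the hexamer in capitals. Rps9, Rpl35a and Rps25 were used more in host lineages and Rpl4 and Rpl26 more in carcinoma cells, as described further on. Rpl37a, used more in host cells, and Rplp0, used more in carcinoma cells, had no such hexamer in the window searched. The stretch printed for Rpl37a lies wholly before the gene position given further on, which came from GENCODE, and does not show that start. Rpl35a has another start in the table, whose window is not shown.
Rps9 (chr7:3704026-3704055, plus strand): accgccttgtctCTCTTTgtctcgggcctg
Rpl35a (chr16:33056470-33056499, plus strand): gggcttgccttcCTCTTTccgccatcttgg
Rps25 (chr9:44407684-44407713, plus strand): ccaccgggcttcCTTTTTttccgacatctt
Rpl4 (chr9:64173358-64173387, plus strand): caagtgacaagtCTTTCCttttcctgtggg
Rpl26 (chr11:68901577-68901606, plus strand): tcgcgtgtagttCTCTTTccttttgcggcc
Rpl37a (chr1:72711248-72711277, plus strand): cgctcgccggtctaaaaccgcgcatgcgca
Rplp0 (chr5:115559455-115559484, plus strand): ttcgggtttcgaggaccgcctggttctcct
A match describes these letters only.

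After removal of 1050 cells with fewer than 500 genes or 15% or more mitochondrial counts, 13768 cells remained, and 10182 of them passed the marker gate of 1 lineage. No ribosomal protein gene was used in a gate. The 9 lineages with at least 50 cells were led by genes of their own type, such as Gzmc and Gzma (granzymes) in NK cells, Cd3d and Cd3g (T cell receptor complex) in T cells, Ctsk and Acp5 in osteoclasts, Epcam and Krt14 in epithelial carcinoma cells, and Lyz2 and C1qa in macrophages. Except for Gzmc, these genes are on the marker lists of the gates. Their lead, and the high marker sums below in their own lineage, therefore follow from the gating. Leading genes outside the lists included Gzmd and Xcl1 in NK cells, Ctla4 and Icos in T cells and Ckb in osteoclasts. Others were Krt7 and Cldn4 in epithelial carcinoma cells and Ctss in macrophages. Mesenchymal carcinoma cells were gated by Xist, few epithelial markers and no Y-linked count, and were led by Tac1 and Nppc. The summed macrophage markers were at 12181 CPM (counts normalised to the total gene count of the lineage) in macrophages and 26.4 CPM in mesenchymal carcinoma cells. Summed NK markers were at 8201 CPM in NK cells and 1214 CPM in T cells, and summed T cell markers at 4846 CPM in T cells and 771 CPM in NK cells. No doublets were called, and 3586 cells that met no gate or conflicting gates were left out of the lineages. The ungated cells gave 17.4% of their counts to the 83 genes, and the dropped cells 5.80%.

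The 83 genes gave 23493974 of 141434361 UMIs in the matrix, or 16.6%. NK cells gave the largest share of their counts to them and macrophages the smallest among the 9 lineages. The share in NK cells was 23.4% (238 cells, exact 95% binomial interval 23.3% to 23.5%), and in the 6 barcode sets it was 24.01%, 24.96%, 24.03%, 22.4%, 22.95% and 22.2%. The share in macrophages was 12.1% (1662 cells), and in the same 6 sets it was 13.3%, 13.1%, 11.4%, 11.8%, 11.5% and 10.7%. Every NK value lay above every macrophage value, and the ratio of the pooled shares was 1.94. All intervals here cover counting error only, since cells of 1 pool are not independent samples.

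Barcode sets are given where they held at least 10 cells of a lineage. Between these ends, T cells were at 19.2% (364 cells, 18.4% to 20.2% over 5 sets) and epithelial carcinoma cells at 18.7% (383 cells, 16.1% to 20.2% over 6 sets). Osteoclasts, the bone-resorbing relatives of macrophages, were at 18.1% (116 cells, 17.6% to 18.9% over 4 sets). The ranges of these 3 lineages overlapped and did not tell them apart. Within shared sets T cells lay above osteoclasts in 3 of 3 sets and above epithelial carcinoma cells in 4 of 5. Epithelial carcinoma cells lay above osteoclasts in 1 of 4 sets. Mesenchymal carcinoma cells were at 16.4% (7007 cells), with 16.5%, 16.7%, 16.1%, 15.9%, 16.9% and 16.2% in the 6 sets. Fibroblasts followed at 15.6% (175 cells, 13.6% to 16.7% over 6 sets), a range that overlapped that of the mesenchymal carcinoma cells. Endothelial cells were at 14.3% (54 cells, 12.995% to 15.1% over 3 sets) and pericytes or smooth muscle cells at 13.04% (67 cells, 11.4% to 14.2% over 3 sets). Both lay above the macrophages in 2 of 3 sets, while NK cells lay above T cells in 5 of 5 sets and above mesenchymal carcinoma cells in 6 of 6. Of the lineages under 50 cells, 12 B cells were at 24.5% and 37 neutrophils at 7.07%.

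**Figure D1:**
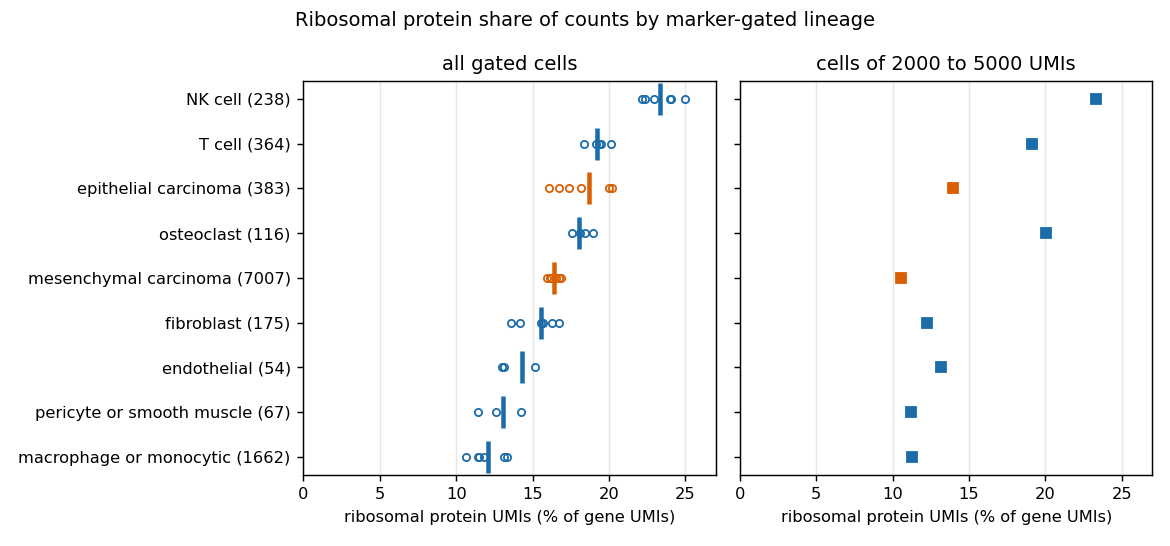
Counts from the 83 ribosomal protein genes as a percentage of gene UMIs (x axis) in the 9 lineages of at least 50 cells (y axis, cell numbers in brackets), for all gated cells (left; vertical bars are pooled values and open circles single barcode sets) and for cells of 2000 to 5000 UMIs (right; squares are pooled values, that of osteoclasts from 8 cells). NK cells stand at 23.4% on the left and 23.3% on the right, and mesenchymal carcinoma cells (orange, as are the epithelial ones) at 16.4% and 10.54%.

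Depth differed between the lineages and moved with the share within one of them. Median UMIs per cell were 3166 in NK cells, 2110.5 in T cells, 2224 in macrophages and 10922 in mesenchymal carcinoma cells. Within the mesenchymal carcinoma cells the share went from 9.20% in the decile of cells with the fewest UMIs (median 2999) to 18.03% in the decile with the most (median 27007). Over the same deciles the mitochondrial share went from 6.38% to 2.27%. Among cells of 2000 to 5000 UMIs, the NK share was 23.3%, the T cell share 19.1%, the macrophage share 11.3% and the mesenchymal carcinoma share 10.54%. In that band the epithelial carcinoma share was 13.9%, so the carcinoma lineages lay lower, and the mesenchymal one below the macrophages. With every cell thinned to the same number of UMIs, which left out 63 NK cells and 699 macrophages, the shares were 23.5% in NK cells, 15.3% in mesenchymal carcinoma cells and 11.7% in macrophages.

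The wide difference between NK cells and macrophages was spread over most of the genes. Each gene's share of counts in a lineage was divided by its share in all other gated cells, and a difference past 1.5-fold was counted; with 1 pool there is no replicate and no test. Most of the comparison cells are mesenchymal carcinoma cells, so the ratios of the host lineages share a denominator and are not independent. In NK cells 36 of the 83 genes were higher and 1 lower (median 1.46-fold), against 16.7% of all tested genes higher and 45.1% lower with a median of 0.74. In T cells 12 were higher and 1 lower (median 1.17-fold), against 19.8% and 41.8% of all genes. In macrophages 2 were higher and 31 lower (median 0.72-fold), against 17.3% and 46.5%, and the median of all genes was 0.71. The part of the members that was lower in macrophages was thus no larger than that of all genes. The 1 lower member in T cells was Rps19bp1 (0.65-fold).

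Rare genes pass 1.5-fold by counting noise alone, so the 322 other genes with at least 50000 UMIs serve as a closer background. Of these abundant genes, 6.83% were higher and 47.2% lower in NK cells, 9.32% higher and 44.1% lower in T cells, and 38.2% lower in macrophages. Under scaling by the median ratio of genes instead of total counts, 64 members were higher and 0 lower in NK cells, and 34 higher and 0 lower in T cells. The shares of all genes past 1.5-fold under that scaling were not counted, so its member counts, here and below, have no background beside them. That scaling left 5 higher and 3 lower in macrophages, with a median of 1.01-fold. The count of lower members in macrophages therefore belongs to the share of all counts and not to a comparison with the typical gene.

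In the remaining lineages fewer members passed. Osteoclasts had 7 higher and 2 lower (Rps20 at 0.63-fold and Rpl21 at 0.64-fold), against 17.6% and 44.3% of all genes, and under median-ratio scaling 26 higher and 0 lower. Epithelial carcinoma cells had 0 either way, against 6.28% and 20.0%, and mesenchymal carcinoma cells had 0 higher and 2 lower (Rpl37a and Rps29), against 21.1% and 15.9%. Fibroblasts had 1 higher (Rpl37a at 1.56-fold) and 3 lower (Rps19bp1, Rpl27 and Rpl19), against 14.1% and 37.5%, and under median-ratio scaling 5 higher and 0 lower (median 1.19-fold in place of 0.97). Endothelial cells had 1 higher (Rps27rt, the member of fewest UMIs) and 11 lower, against 24.8% and 35.4%. Pericytes had 0 higher and 13 lower, against 19.2% and 34.5%. Of the abundant other genes, 15.5% were higher and 43.8% lower in osteoclasts, 7.14% and 13.7% in epithelial and 18.6% and 9.01% in mesenchymal carcinoma cells. These values were 10.6% and 40.7% in fibroblasts, 9.01% and 36.3% in endothelial cells and 9.63% and 34.2% in pericytes. Without barcode set 1 the pericyte count of lower members was 23 in place of 13, and with thinned cells the counts of higher members were 19 in T cells and 12 in osteoclasts.

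The genes at the top of the NK comparison were Rps24, at 7034 CPM and 2.42-fold the other cells, Rpl37a at 3607 CPM and 2.39-fold, and Rpl39 at 3349 CPM and 2.26-fold. The 1 lower member in NK cells was Rps27l, a p53-responsive paralog of Rps27, at 332 CPM and 0.59-fold. Rplp0, the base of the ribosomal stalk, was at 1967 CPM and 0.80-fold in NK cells, below the other cells in a lineage where most members were above. In macrophages Rps29 was at 2338 CPM and 1.67-fold and Rpl37a at 2250 CPM and 1.51-fold, whereas Rpl21 was at 764 CPM and 0.45-fold, Rps2 at 2155 CPM and 0.46-fold and Rpl13 at 2494 CPM and 0.46-fold. The macrophages thus held both higher and lower members side by side.

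To describe the make-up of the ribosomal protein mRNA apart from its amount, each gene was expressed as a percentage of the summed counts of the 83 genes, called its pool share. The ratio of pool shares between a lineage and the other gated cells passed 1.5-fold 51 times over the 9 lineages: 4 higher and 5 lower in NK cells, 4 and 8 in T cells, 2 and 3 in osteoclasts, 1 and 2 in fibroblasts, 2 and 5 in endothelial cells, 1 and 3 in pericytes, 5 and 4 in macrophages, 0 and 2 in mesenchymal carcinoma cells and 0 and 0 in epithelial carcinoma cells. The share of all genes that passed either way per ribosomal protein count was 71.1% in NK cells, 63.9% in T cells, 63.8% in osteoclasts, 50.2% in fibroblasts, 61.7% in endothelial cells, 55.4% in pericytes, 57.6% in macrophages, 37.0% in mesenchymal and 33.3% in epithelial carcinoma cells. These backgrounds include many genes with few counts. Division by the summed member counts also centres the members near 1 but not the other genes. Percentages of other genes per ribosomal protein count, here and below, are therefore not like for like with the member counts. Over the 80 members with at least 50000 UMIs, the SD of the log2 ratio was 0.38 in macrophages, 0.36 in NK cells, 0.35 in T cells, 0.30 in osteoclasts, 0.19 in mesenchymal and 0.074 in epithelial carcinoma cells. The epithelial and mesenchymal carcinoma cells had nearly the same make-up, although the denominator of the epithelial ratios is mostly mesenchymal carcinoma cells.

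**Figure D2:**
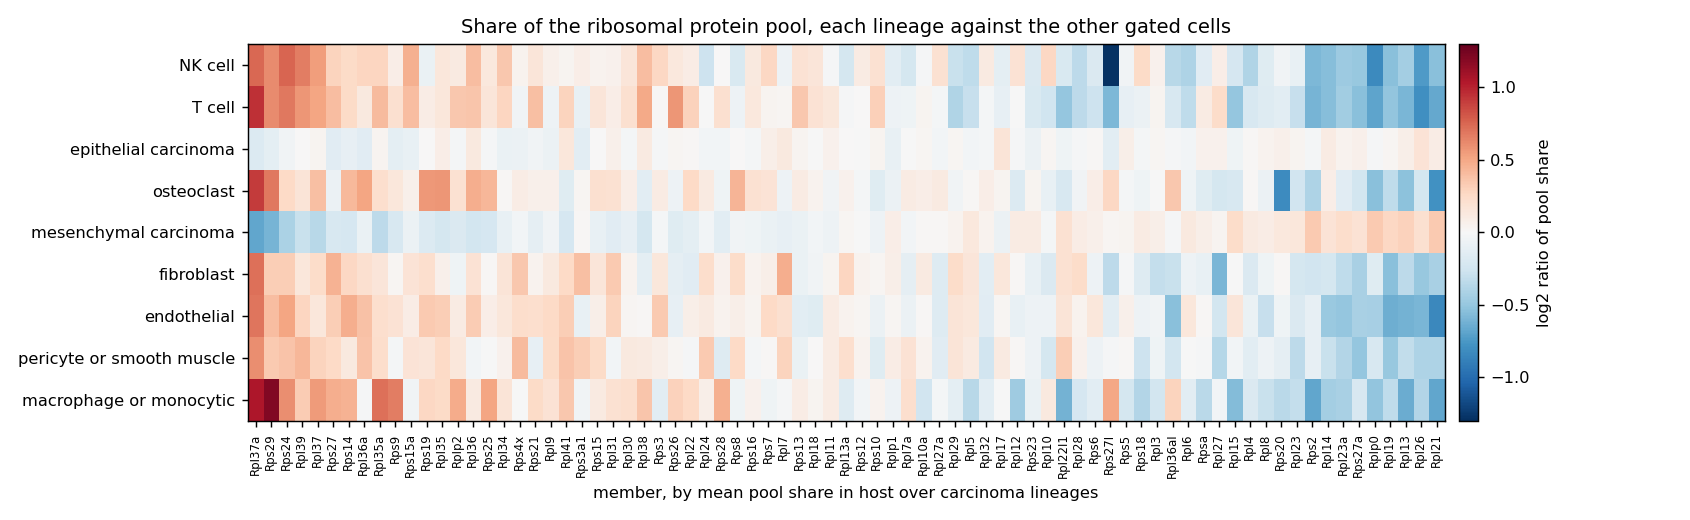
Log2 ratio of pool share in a lineage (rows) to that in the other gated cells (color, from blue for lower to red for higher, limited at 1.3 either way) for 77 of the 80 members with at least 50000 UMIs (columns, ordered by the host to carcinoma ratio). Rpl37a and Rps29 are above 0 in every host lineage and below 0 in both carcinoma lineages.

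Rpl37a (chr1:72711290-72713813, plus strand), a small zinc-binding protein of the large subunit, differed in most lineages. Its pool share in the barcode sets ran from 0.799% through a median of 0.863% to 0.928% in mesenchymal carcinoma cells and from 0.684% through 0.803% to 0.899% in epithelial carcinoma cells. It ran from 1.46% through 1.55% to 1.61% in NK cells and from 1.47% through 2.02% to 2.39% in macrophages. No set of either carcinoma lineage reached the lowest NK, T cell or macrophage set. The ratio to the other cells was 2.07 in macrophages, 1.94 in T cells, 1.88 in osteoclasts, 1.67 in NK cells, 1.64 in fibroblasts, 1.62 in endothelial cells, 1.52 in pericytes, 0.89 in epithelial and 0.63 in mesenchymal carcinoma cells.

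Rps29 (chr12:69157722-69159186, minus strand), a zinc-binding protein of the small subunit, had the same order of carcinoma and host cells with its highest value in macrophages. Its pool share ran from 0.735% through 0.841% to 0.926% in the mesenchymal carcinoma sets, from 1.23% through 1.36% to 1.49% in the NK sets and from 1.64% through 2.00% to 2.38% in the macrophage sets. The macrophage sets lay above the NK sets without overlap, and both lay above the carcinoma sets. The ratios to the other cells were 2.30 in macrophages, 1.61 in osteoclasts, 1.53 in T cells and 0.66 in mesenchymal carcinoma cells. The last of these was no longer past 1.5-fold when barcode set 1, 4, 5 or 6 was left out.

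Rps24 (chr14:24487125-24496959, plus strand), a small-subunit protein that is mutated in Diamond-Blackfan anemia, was the most abundant of these 3 genes. Its pool share ran from 1.68% through 1.70% to 1.83% in mesenchymal carcinoma sets, from 2.93% through 3.04% to 3.21% in NK sets and from 2.46% through 2.72% to 2.95% in macrophage sets. The NK and macrophage ranges overlapped at their ends, and both lay above the carcinoma range. The ratio was 1.69 in NK cells, 1.61 in T cells, 1.43 in endothelial cells and 0.75 in mesenchymal carcinoma cells.

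Other members were used more in the carcinoma cells. The pool share of Rplp0 (chr5:115559467-115563727, plus strand) ran from 1.45% through 1.54% to 1.61% in mesenchymal and from 1.38% through 1.47% to 1.67% in epithelial carcinoma sets. It ran from 0.762% through 0.835% to 0.908% in NK sets and from 0.908% through 0.993% to 1.29% in macrophage sets. Rps2 (chr17:24718116-24721929, plus strand), a small-subunit protein near the mRNA entry site, had pool shares that ran from 2.55% through 2.89% to 3.06% in mesenchymal and from 2.45% through 2.79% to 3.34% in epithelial carcinoma sets. It ran from 1.58% through 1.87% to 2.21% in NK sets and from 1.46% through 1.69% to 2.20% in macrophage sets. For both genes the carcinoma sets lay above the NK and macrophage sets with no overlap.

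The pool share of Rpl21 (chr5:146832890-146837032, plus strand), a large-subunit protein, ran from 0.996% through 1.04% to 1.13% in mesenchymal carcinoma sets, from 0.653% through 0.674% to 0.720% in NK sets and from 0.511% through 0.637% to 0.669% in macrophage sets. Its ratio to the other cells was 1.26 in mesenchymal carcinoma cells, 0.62 in macrophages, 0.58 in osteoclasts and 0.56 in endothelial cells. Rpl13 (chr8:123102350-123105244, plus strand), the member with the most UMIs, ran from 3.18% through 3.23% to 3.46% in mesenchymal carcinoma sets, from 2.17% through 2.35% to 2.57% in NK sets and from 1.89% through 1.98% to 2.30% in macrophage sets. Both genes had every mesenchymal carcinoma set above every NK and macrophage set.

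**Figure D3:**
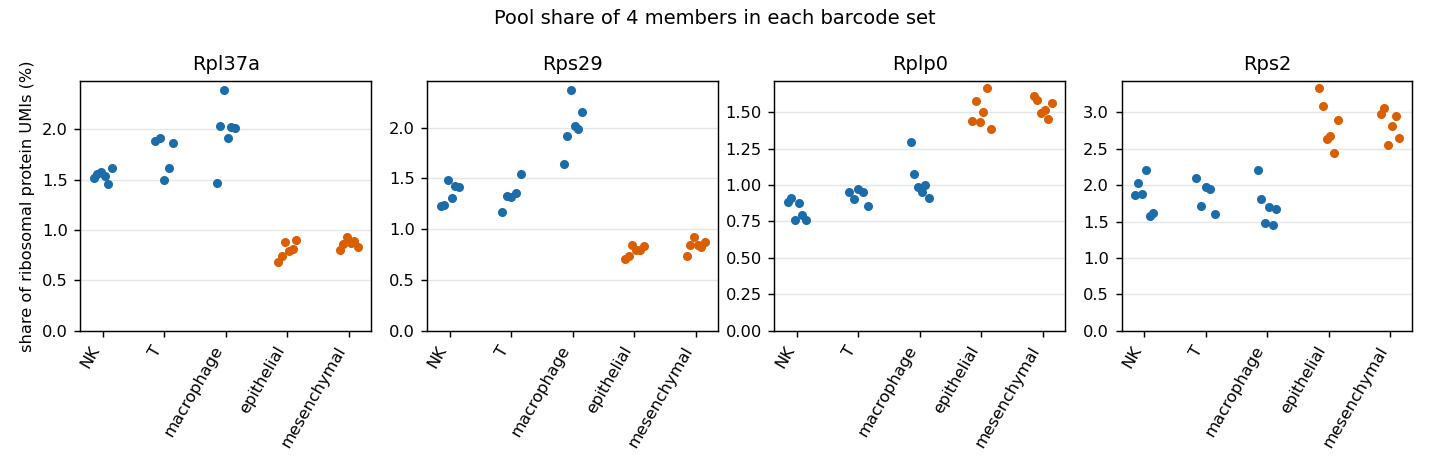
Percentage of ribosomal protein UMIs (y axis) taken by Rpl37a, Rps29, Rplp0 and Rps2 in each barcode set (1 point per set) of 5 lineages (x axis; carcinoma in orange). The carcinoma points of Rpl37a lie between 0.684% and 0.928%, below the NK, T cell and macrophage points, and those of Rplp0 between 1.38% and 1.67%, above them.

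Host and carcinoma lineages were then set side by side for every member, a comparison chosen after these values were seen. The pool share was higher in all 7 host lineages than in both carcinoma lineages for 13 members, of which 6 belong to the large and 7 to the small subunit. The ratio of the mean host to the mean carcinoma pool share was 1.93 for Rpl37a (1.62% against 0.842%), 1.65 for Rps29 (1.34% against 0.811%) and 1.47 for Rps24 (2.55% against 1.73%). Among the others it was 1.32 for Rpl39 and for Rpl37, 1.31 for Rps14, 1.26 for Rpl35a, 1.21 for Rps9, 1.17 for Rps25, 1.16 for Rpl34, 1.11 for Rps15 and 1.10 for Rpl30. Per ribosomal protein count, 3.32% of all genes and 1.24% of the abundant other genes lay above in this way, against 15.7% of the members. Backgrounds per ribosomal protein count are not like for like here, since the division centres the members and not the other genes. The pool share was lower in all host lineages for 14 members, 10 of the large and 4 of the small subunit, or 16.9% of the members, against 7.74% of all genes and 13.7% of the abundant ones. Their ratios included 0.63 for Rpl21 (0.659% against 1.05%), 0.66 for Rpl26, 0.69 for Rpl13, 0.70 for Rpl19, 0.72 for Rplp0, 0.74 for Rps27a, 0.75 for Rpl23a, 0.77 for Rps2, 0.83 for Rpl23, 0.85 for Rps20, and 0.88 for Rpl8 and for Rpl4.

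In share of all counts, where lineages differ in their total for these genes, 1 member lay above both carcinoma lineages in every host lineage (Rpl37a), against 3.29% of 10670 genes and 2.17% of the abundant other genes. 6 lay below (Rplp0, Rpl21, Rps27a, Rpl26, Rpl19 and Rps2), against 11.7% of genes and 21.1% of the abundant ones. Both counts were near or under the background.

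The members used more in host cells had the shorter coding sequences. The median coding length was 351 bases for the 13 host-high members (153 to 582) and 504 for the 14 carcinoma-high members (357 to 1257), with 453 over the members compared. Across the 80 abundant members the Spearman correlation of coding length with the host to carcinoma ratio was −0.51. Genes of 1 pool share its libraries, so this is a description of these cells. The median number of annotated pseudogenes named after the member with the suffix -ps was 1 for the host-high and 4.5 for the carcinoma-high members. By that naming 60 of the 83 members had at least 1, and copies under other names were not counted. Counts of genes with near-identical copies are uncertain, since reads that match several places can be lost or assigned elsewhere. The part of length and of copies in the difference was not tested. A pyrimidine hexamer was present in 7 of 9 host-high and 3 of 7 carcinoma-high members with a start in the RefSeq table.

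The large subunit took 55.0% of the pool in mesenchymal and 55.4% in epithelial carcinoma cells and between 52.3% and 53.7% in the host lineages. Within the mesenchymal carcinoma cells the make-up varied little between barcode sets. The highest set was a median of 1.13 times the lowest over the 80 abundant members, 0 of 80 passed 1.5 times, and the widest range was 1.29 times for Rpl41, the smallest protein of the ribosome. Against the mesenchymal carcinoma cells of the same set, 27 members were higher and 26 lower in NK cells in all 6 sets, 30 and 27 in T cells in all 5, and 30 and 30 in macrophages in all 6. Per ribosomal protein count, the shares of all genes that did so were 6.20% higher and 50.3% lower in NK cells, 12.6% and 42.9% in T cells and 26.6% and 29.0% in macrophages. Of the abundant other genes, 3.42% were higher and 78.6% lower in NK cells, 12.1% and 65.5% in T cells, and 38.8% and 32.9% in macrophages. The macrophage counts of the members, 36.1% either way, were near those of the abundant genes, though this division centres the members only.

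NK cells were highest in Rps24, Rpl37a and Rpl39 (ratios 1.69, 1.67 and 1.58). They were lowest in Rps27l (0.41, from 312 counts), Rps19bp1 (0.49, from 29 counts) and Rplp0 (0.56). Rps29 (1.53), Rpl26 (0.60) and Rpl7l1 (0.60) also passed 1.5-fold there. In T cells Rpl37a, Rps24 and Rps29 were highest among members with enough counts and Rps19bp1 (0.55, from 30 counts), Rpl26 (0.58) and Rpl7l1 (0.60, from 41 counts) lowest. NK and T cells, both lymphoid, thus had Rpl37a and Rps24 among their 3 highest. Endothelial cells did too (1.62 and 1.43), and Rpl37a was among the 3 highest in each host lineage. With thinned cells 5 members passed 1.5-fold in NK cells in place of 9.

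The monocytic lineages shared some members and differed in others. Macrophages were highest in Rps29, Rpl37a and Rpl35a (1.64), with Rps9 (1.59) and Rps24 (1.52) also past 1.5-fold, and lowest in Rpl21, Rps2 (0.63) and Rpl13 (0.64). Osteoclasts were highest in Rpl37a, Rps29 and Rpl35 (1.48) and low in Rps20 (0.57) and Rpl21. Rps9, a small-subunit protein, ran from 2.29% through 2.80% to 3.14% of the pool in macrophage sets and from 1.64% through 1.73% to 1.81% in mesenchymal carcinoma sets, with no overlap.

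By the SD of the log2 ratio, stromal lineages departed less than the NK, T cell and monocytic ones. It was 0.25 in fibroblasts, 0.28 in endothelial cells and 0.25 in pericytes, beside 0.30 in osteoclasts. By members past 1.5-fold, endothelial cells had more (2 higher and 5 lower) than osteoclasts (2 and 3). Fibroblasts were highest in Rpl37a, Rpl7 (1.39) and Rps27 (1.37) and lowest in Rps19bp1 (0.63, from 37 counts, which turned above the other cells in thinned counts), Rpl27 (0.66) and Rpl19 (0.68). Endothelial cells were highest in Rpl37a, Rps24 and Rps14 (1.38) and lowest in Rpl21, Rpl19 (0.65) and Rpl13 (0.65). Pericytes were highest in Rpl37a, Rpl39 (1.35) and Rps4x (1.33) and low in Rps27a (0.71), a ubiquitin fusion, and Rpl19 (0.71). Among members with enough counts, Rpl37a was thus the highest in all 3 lineages. Mesenchymal carcinoma cells were highest in Rplp0 (1.27), Rps2 (1.27) and Rpl21 (1.26), and in epithelial carcinoma cells the 3 highest, Rpl26 (1.13), Rpl17 (1.12) and Rpl41 (1.10), and the 3 lowest, Rpl7l1 (0.77), Rpl37a (0.89) and Rps27 (0.90), all lay within 1.5-fold.

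The X-linked members could be compared between carcinoma cells that carry Xist RNA and host cells of male mice. The pool share of Rps4x (chrX:102184941-102189394, minus strand) ran from 1.62% through 1.67% to 1.80% in mesenchymal carcinoma sets, from 1.59% through 1.76% to 1.82% in NK sets and from 1.45% through 1.75% to 1.95% in macrophage sets, and the ranges overlapped. For Rpl10 the pool share ran from 1.05% through 1.14% to 1.22% in mesenchymal carcinoma sets, from 1.24% through 1.34% to 1.43% in NK sets and from 0.838% through 0.953% to 1.03% in T cell sets. Its NK sets lay above and its T cell sets below the mesenchymal carcinoma sets, while the epithelial carcinoma sets (1.05% to 1.35%) overlapped the NK sets. Rpl39 (chrX:37082520-37085402, minus strand) had pool shares from 1.35% through 1.43% to 1.56% in NK sets and from 0.842% through 0.899% to 0.984% in mesenchymal carcinoma sets. Rpl36a ran from 0.478% through 0.523% to 0.541% in NK sets, from 0.393% through 0.433% to 0.480% in macrophage sets, from 0.410% through 0.436% to 0.448% in mesenchymal and from 0.341% through 0.389% to 0.402% in epithelial carcinoma sets. Over the pooled lineages Rpl39 lay above both carcinoma lineages in 7 host lineages, and Rpl36a and Rps4x in 6 and below both in 0. Rpl10 lay above in 2 and below in 5, so 3 of these 4 X-linked members were mostly higher in host lineages and 1 was mostly lower.

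Rpl5 and Rpl11, the Mdm2-binding members, did not move together. The pool share of Rpl5 ran from 0.859% through 0.945% to 1.08% in mesenchymal carcinoma sets, from 0.639% through 0.786% to 0.831% in NK sets and from 0.648% through 0.774% to 0.856% in macrophage sets, below the mesenchymal carcinoma sets throughout. The epithelial carcinoma sets of Rpl5 ran from 0.834% through 1.05% to 1.16% and overlapped the macrophage sets. Over the pooled lineages Rpl5 lay below both carcinoma lineages (0.945% and 0.982%) in 3 host lineages, namely NK cells, T cells and macrophages. It lay above both in 3, at 1.07% in fibroblasts, 1.08% in endothelial cells and 1.05% in pericytes. Rpl11 took a pool share that ran from 1.01% through 1.05% to 1.08% in mesenchymal carcinoma sets, from 0.988% through 1.04% to 1.13% in NK sets and from 1.13% through 1.15% to 1.27% in T cell sets. The NK range of Rpl11 overlapped the carcinoma range and the T cell range lay above it.

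Paralogs were described as a percentage of the counts of the pair they form with the parent gene. Rps27l (chr9:66946086-66949516, plus strand) gave 14.8% of the Rps27 and Rps27l counts in NK cells (312 counts beside 1803 of Rps27, exact 95% interval 13.3% to 16.3%) and 20.7% in T cells (19.0% to 22.4%). It gave 34.4% in mesenchymal carcinoma cells (34.2% to 34.7%), 34.2% in macrophages, 34.0% in epithelial carcinoma cells and 39.3% in osteoclasts (37.2% to 41.4%). NK sets ran from 10.4% through 13.1% to 20.3%, T cell sets from 14.4% through 21.2% to 25.3% and mesenchymal carcinoma sets from 32.8% through 33.8% to 36.3%. The NK and T cell sets overlapped each other, and both lay below every carcinoma set and below the macrophage sets (27.9% to 37.2%). With thinned cells the NK value was 12.3%, the T cell value 17.95% and the mesenchymal carcinoma value 32.7%. The 35 dendritic cells gave the highest value, 51.4% (46.5% to 56.3%). Rps27rt, a near-identical copy of Rps27, can share its reads, so the Rps27 level is uncertain.

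Rpl22l1 (chr3:28805436-28807424, plus strand), which stands in for Rpl22, had another order. It gave 21.3% of its pair in macrophages, 21.9% in T cells, 26.0% in osteoclasts, 28.4% in NK cells, 31.7% in epithelial and 33.4% in mesenchymal carcinoma cells, 34.0% in endothelial cells, 37.9% in pericytes and 38.2% in fibroblasts. Macrophage sets (median 21.03%, highest 23.5%) and T cell sets (19.9% to 23.7%) overlapped each other and lay below the mesenchymal carcinoma sets (30.8% to 34.1%), which overlapped the fibroblast sets (32.1% to 47.5%). Rpl36al, an autosomal copy of the X-linked Rpl36a, gave between 35.1% of its pair in endothelial cells and 55.5% in macrophages, with 50.7% in mesenchymal carcinoma cells. Rpl7l1, a biogenesis relative of Rpl7, gave between 1.83% in fibroblasts and 5.07% in osteoclasts. By pooled value the lowest lineage thus differed in each of these 4 pairs. For Rpl22l1, Rpl36al and Rpl7l1 its interval overlapped those of other lineages, so it was not told apart from them. The Rpl22l1 interval was 20.4% to 22.2% in macrophages and 20.4% to 23.5% in T cells. Both Rpl22l1 and Rps27l were lower in T cells than in carcinoma cells.

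Rpl39l (chr16:10170226-10174911, plus strand), best known from testis and outside the minimum with 338 UMIs, was found mainly in stromal cells. It gave 4.25% of the Rpl39 and Rpl39l counts in fibroblasts (99 counts, 3.47% to 5.16%; sets 2.80% to 8.99%) and 4.66% in pericytes (32 counts, 3.21% to 6.52%). It gave 0.0388% in mesenchymal carcinoma cells (49 counts beside 126199 of Rpl39), 0.358% in macrophages (23 counts) and 0.292% in T cells (8 counts). It was at 0 counts in NK cells, epithelial carcinoma cells and endothelial cells, where the limit set by 3 counts is 0.0952%, 0.0319% and 0.579% of the pair and the upper bound of the exact 95% interval is 0.117%, 0.0392% and 0.710%. Every fibroblast and pericyte set thus lay above the value of each other lineage of at least 50 cells. Among the smaller groups, the 37 neutrophils had 3 counts, or 4.23% (exact 95% interval 0.880% to 11.9%). Summed fibroblast markers were at 64061 CPM in fibroblasts, 27300 CPM in pericytes, 3679 CPM in mesenchymal carcinoma cells, 2190 CPM in macrophages and 1373 CPM in T cells, and RNA carried over from stromal cells was not tested for Rpl39l. Rpl10l was at 0 in the whole matrix.

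**Figure D4:**
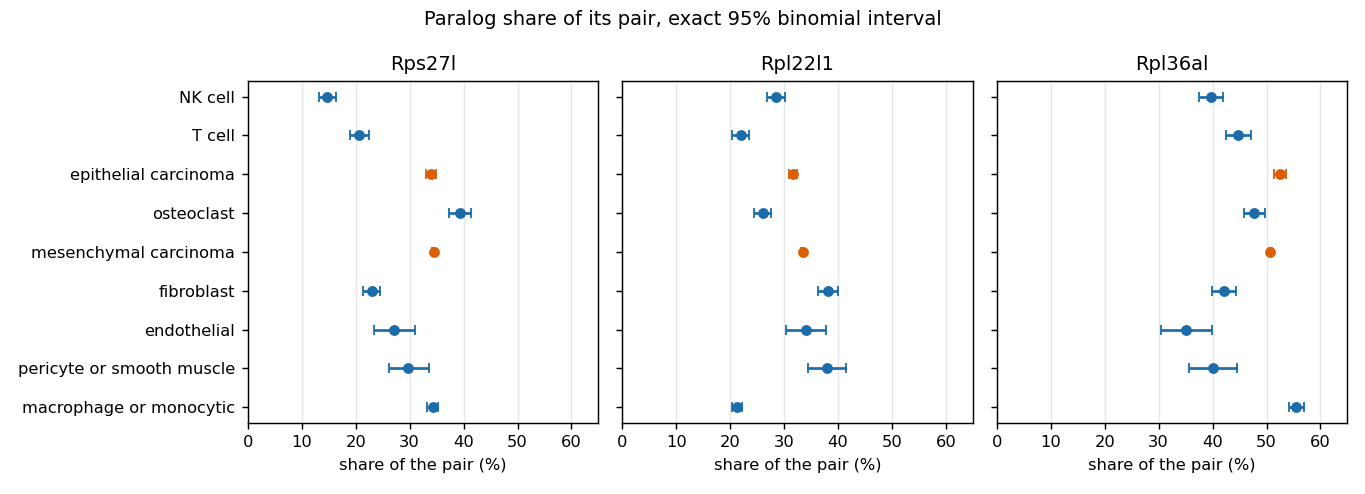
Counts of Rps27l, Rpl22l1 and Rpl36al as a percentage of the pair each forms with its parent gene (x axis) in the 9 lineages (y axis; carcinoma in orange), with bars for exact 95% binomial intervals that cover counting error only. Rps27l is lowest in NK cells at 14.8% and highest in osteoclasts at 39.3%, and Rpl22l1 is lowest in macrophages at 21.3%.

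Malat1 is a nuclear long noncoding RNA, and cells poor in it have been read as cells whose nucleus is lost or little sampled. Cells were called Malat1-poor when Malat1 took no more than 1/10 of their lineage's median share. Among mesenchymal carcinoma cells 340 (4.85%) were Malat1-poor, and they gave 18.9% of their counts to the ribosomal protein genes, against 16.3% in the others, a ratio of 1.16. With Malat1 itself left out of the totals the values were 18.9% and 16.6%, and against other cells of matched depth 18.9% and 16.0%. In the 6 sets the Malat1-poor and other cells were at 18.4% and 16.45% (65 Malat1-poor cells), 18.6% and 16.6% (58), 20.1% and 15.8% (7), 19.3% and 15.8% (99), 18.7% and 16.8% (85), and 19.6% and 16.1% (26). The Malat1-poor cells were higher in 6 of 6 sets. Their median depth was 9641 UMIs against 10990, their mitochondrial share 2.37% against 2.78%, and Neat1, another nuclear noncoding RNA, was at 224 CPM against 1761 CPM.

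The difference in Malat1-poor mesenchymal carcinoma cells was small and nearly even over the members. 76 of the 83 members had a ratio above 1, with a median of 1.17 against 0.94 over all genes. 0 passed 1.5-fold either way, against 1.97% of all genes higher and 12.1% lower. The 7 below 1 included Rpl31, Rpl12, Rpl5, Rps25, Rps15 and Rpl23a, the last at 0.90. As pool shares the ratios ran from 0.78 for Rpl23a, 0.80 for Rpl12 (part of the stalk base) and 0.82 for Rps15 to 1.11 for Rpl38 and Rps24 and 1.12 for Rpl41, and none passed 1.5-fold, against 23.9% of all genes per ribosomal protein count. The pool ratios of Malat1-poor cells thus had a narrower span than those of the host lineages and of mesenchymal carcinoma cells as a lineage. Epithelial carcinoma cells against the other gated cells had a similar span, from 0.77 for Rpl7l1 to 1.13 for Rpl26.

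Over the whole range of Malat1 the share was lower at each step. From the decile of mesenchymal carcinoma cells with the least Malat1 (0.130% of counts) to the one with the most (7.53%), the ribosomal protein share was 18.9%, 18.6%, 18.5%, 17.5%, 17.2%, 16.1%, 15.5%, 14.2%, 12.7% and 9.58%. With Malat1 out of the totals it went from 19.0% to 10.4%. Median depth went from 10583 UMIs in the first decile to 5716 in the last, and the mitochondrial share from 2.46% to 4.28%. The lower end of the share was therefore found in Malat1-rich, shallow cells with more mitochondrial counts, and the part of these measures in it was not tested.

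**Figure D5:**
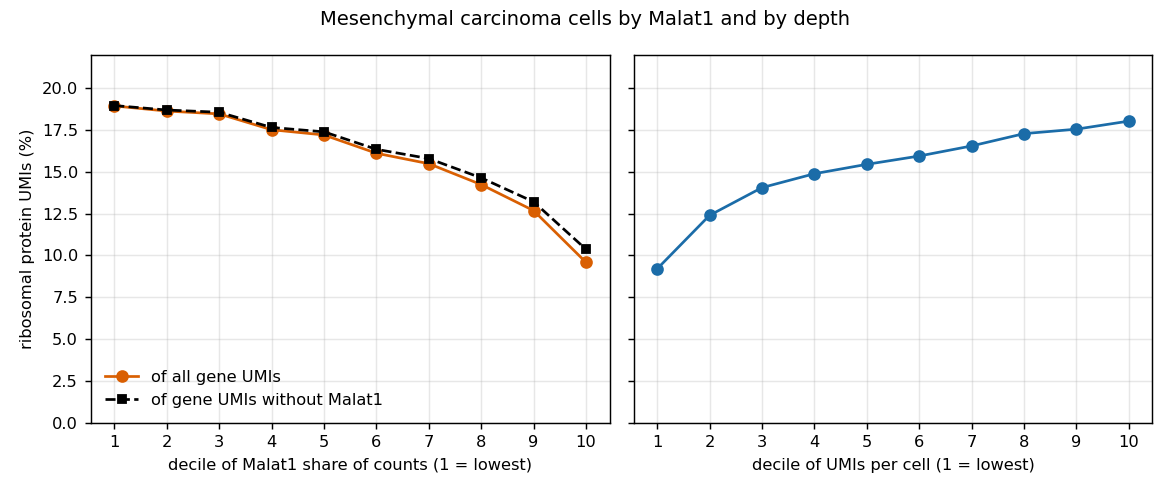
Ribosomal protein UMIs as a percentage of gene UMIs (y axis) in mesenchymal carcinoma cells by decile of Malat1 share (left; circles with all genes in the total, squares with Malat1 left out of it) and by decile of UMIs per cell (right). The share is 18.9% in the Malat1-poorest decile and 9.58% in the richest, and 9.20% in the shallowest decile and 18.03% in the deepest.

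The direction was the same in the other lineages when each was divided into 5 bins of cells by Malat1. From the bin with the least Malat1 to that with the most, the share went from 25.5% to 19.2% in NK cells, 21.7% to 15.7% in T cells, 20.9% to 14.3% in epithelial carcinoma cells, 20.7% to 14.5% in osteoclasts, 17.1% to 14.1% in fibroblasts, 15.3% to 11.6% in endothelial cells, 14.6% to 7.81% in pericytes and 13.6% to 10.1% in macrophages. The span within NK cells was wider than the difference between NK and T cells. Below 1/10 of the median, 11 NK cells were at 25.4% against 23.2%, 9 T cells at 24.0% against 18.9%, 23 epithelial carcinoma cells at 22.6% against 18.4%, 18 fibroblasts at 17.6% against 15.4%, 4 osteoclasts at 18.8% against 18.03%, 2 endothelial cells at 21.5% against 14.2%, and 4 pericytes at 11.8% against 13.1%. Against cells of matched depth the pericyte order turned (11.8% against 10.9%), and so did that of osteoclasts (18.8% against 19.6%). In the other 5 of these lineages the Malat1-poor cells were higher with and without matching, in few cells each.

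In macrophages 83 cells were Malat1-poor and gave 14.4% of their counts to these genes, against 11.97% in the others (ratio 1.21) and 11.7% in others of matched depth. The sets did not all follow: the Malat1-poor and other cells were at 13.5% and 13.3%, 19.7% and 12.4%, 12.2% and 11.4%, 14.6% and 11.7%, 10.55% and 11.50%, and 11.9% and 10.6%, so 1 of 6 sets was lower. 79 of 83 members had a ratio above 1, 1 was past 1.5-fold higher (Rps19bp1 at 1.51) and 1 lower (Rps27rt, from 1 count), against 16.1% and 36.1% of all genes. As pool shares the highest were Rplp1 (1.23), Rpl35 (1.19) and Rpl36a (1.18) and the lowest of the abundant ones Rpl36al (0.80) and Rps14 (0.81), while 55.6% of all genes passed 1.5-fold per ribosomal protein count. Median depth was 1635 UMIs in the Malat1-poor macrophages and 2249 in the others. Markers of other cells differed between the same cells: summed fibroblast markers were at 393 CPM in the Malat1-poor macrophages and 2266 CPM in the others, neutrophil markers at 152 and 628 CPM, B cell markers at 10.47 and 544 CPM, and epithelial markers at 157 and 60.3 CPM. Their part in the result was not tested.

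Cycling cells, with counts of at least 3 of 8 cell cycle genes, had a larger share in carcinoma cells and macrophages. Among mesenchymal carcinoma cells the 1967 cycling cells (28.1%) were at 17.99% and the others at 15.3%, a ratio of 1.175. In the 6 sets the cycling and other cells were at 18.1% and 15.5%, 18.1% and 15.6%, 17.7% and 15.3%, 17.8% and 14.6%, 18.03% and 15.97%, and 17.99% and 15.2%, higher in 6 of 6. Cycling cells were deeper (median 17046 against 9219 UMIs) and had less Malat1 (0.913% against 2.15%). Among cells of 10000 to 20000 UMIs the shares were 17.9% (942 cells) and 15.9% (1936 cells), so the difference was present at similar depth as well.

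81 of the 83 members had a ratio above 1 in cycling mesenchymal carcinoma cells (median 1.18 against 0.93 over all genes). 1 passed 1.5-fold, Rps19bp1 at 1.53, and 0 were lower, against 10.1% of genes higher and 15.8% lower. Rps27l at 1.46 and Rps2 at 1.42 came next, and Rps27rt at 0.97 and Rpl37a at 0.99 were the 2 below 1. The abundant Rps27 was at 1.01, close to Rpl37a. In macrophages the 74 cycling cells were at 16.5% and the others at 11.5%, with 36 members higher and 0 lower, against 35.8% and 18.1% of all genes, and at 4000 to 8000 UMIs the shares were 14.6% and 12.96%. Epithelial carcinoma cells had 20.3% in 118 cycling cells and 17.3% in the others. NK cells had the opposite order, with 22.1% in 28 cycling cells and 23.7% in the others, and 10 cycling endothelial cells were at 14.1% against 14.4%. T cells (60 cycling cells, 19.8% against 18.8%) and fibroblasts (16, 16.5% against 15.4%) had a larger share when cycling, and the reverse at 4000 to 8000 UMIs, with 19.2% against 20.4% in T cells and 14.8% (2 cycling cells) against 15.7% in fibroblasts.

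Genes of related processes were lists chosen with earlier results known and are given by their counts. Of 24 other genes of translation, mainly initiation and elongation factors, 1 was higher (Pabpc1) and 4 lower (Eif4a1, Eif4e, Eif4ebp1 and Npm1) in NK cells (median 1.00-fold), 0 and 10 in macrophages (0.71) and 1 (Eif4ebp1) and 0 in mesenchymal carcinoma cells (1.11). Over all genes 16.7% were higher and 45.1% lower in NK cells (median 0.74), 17.3% and 46.5% in macrophages (0.71) and 21.1% and 15.9% in mesenchymal carcinoma cells (1.11), so the macrophage and mesenchymal medians of the list were those of all genes. Pabpc1, the poly(A)-binding protein, whose mRNA also has a pyrimidine tract, was at 1.82-fold in NK cells, 1.79 in T cells, 1.77 in osteoclasts and 0.72 in mesenchymal carcinoma cells. Eif4ebp1, a repressor of cap-dependent initiation, was at 0.10-fold in NK cells, 0.12 in T cells and 1.53 in mesenchymal carcinoma cells. Eef1a1, the elongation factor that delivers aminoacyl-tRNA, was at 1.20-fold in NK cells and 0.79 in macrophages.

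Of 25 genes of ribosome biogenesis, 5 were higher and 0 lower in mesenchymal carcinoma cells (median 1.34-fold), namely Polr1a (1.84), the largest subunit of RNA polymerase I, Rrp9 (1.69), Nop2 (1.63), Rrs1 (1.62) and Mybbp1a (1.58). In NK cells 2 were higher and 9 lower (median 0.74), the 2 being Ddx21 (1.65), a nucleolar helicase, and Nop10 (1.60), a protein of the pseudouridylation complex. In T cells 0 were higher and 14 lower (0.62), and in macrophages 0 and 20 (0.47). Npm1, the nucleolar protein nucleophosmin, which was counted among the other translation genes, was at 0.32-fold in macrophages. The NK median was that of all genes (0.74) and its count of lower genes was under the share of all genes (45.1%). In mesenchymal carcinoma cells the 5 of 25 were near the 21.1% of all genes, whose median was 1.11. In macrophages 46.5% of all genes were lower, with a median of 0.71. In T cells 19.8% of all genes were higher and 41.8% lower, with a median of 0.79.

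Of 78 mitochondrial ribosomal protein genes, which serve the ribosome inside mitochondria, 39 were higher and 1 lower in osteoclasts (median 1.47-fold), a lineage whose mitochondrial share of counts was 5.49% against 1.87% in macrophages. In NK cells 2 were higher and 34 lower (0.70), in macrophages 1 and 44 (0.62), in fibroblasts 1 and 57 (0.58) and in mesenchymal carcinoma cells 10 and 0 (1.19). Over all genes 17.6% were higher and 44.3% lower in osteoclasts (median 0.75), 45.1% were lower in NK cells (0.74), 46.5% in macrophages (0.71) and 37.5% in fibroblasts (0.80). The NK counts of the list were thus near those of all genes. In mesenchymal carcinoma cells 21.1% of all genes were higher and 15.9% lower (1.11), so the 10 higher of 78 were under that share. In Malat1-poor mesenchymal carcinoma cells the medians were 1.21 for the mitochondrial ribosomal proteins, 1.13 for the other translation genes and 1.05 for biogenesis, beside 1.17 for the cytosolic ribosomal proteins and 0.94 for all genes.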

How the data were processed

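The authors deposited 1 matrix of raw UMI counts (whole numbers per gene and cell) made with Cell Ranger 7.0.0 per the file headers, on the mm10 build; the submitters' processing notes name Cell Ranger 7.1. Members of the gene group and the comparison lists were chosen with earlier results of these data known, and the gate limits after the data were seen. Immune gates required at least 3 markers of the lineage, and stromal gates no Xist, with a Y-linked count required of fibroblasts only. A Y-linked count was found in 50% of endothelial cells and 59.7% of pericytes. Carcinoma gates required Xist and no Y-linked count, with at least 5 (epithelial) or at most 3 (mesenchymal) epithelial markers. Counts were summed per lineage and expressed as a share of all gene counts or of the counts of the 83 members. The limit for a count of higher or lower genes was 1.5-fold. Named genes were, in each comparison, the 3 members with the highest and the 3 with the lowest pool ratio among those with enough counts, together with the paralogs, X-linked members, Rpl5 and Rpl11. Shares carry exact 95% binomial (Clopper-Pearson) intervals. A count test of treated against vehicle tumors was planned and not run, because no label links cells to tumors. The calculation was tested on simulated counts. Gene positions and coding lengths came from GENCODE M21 and sequences from RefSeq. Python 3.11.15, numpy 2.4.6, scipy 1.17.1 and pandas 2.3.3 were used. The alternatives were other cell filters, stricter gates, median-ratio scaling, thinning, depth bands, leaving out each barcode set, and other Malat1 limits. Values of some members are included in the counts and medians and are not reported here by name.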

Additional observations from a re-analysis of the deposited data

How the results depend on the processing

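Of 1735 values recomputed under alternatives, 1482 stayed within their interval, count limit or side of the 1.5-fold line, 252 moved and 1 reversed. The reversed value was the log2 pool ratio of Rps19bp1 in fibroblasts, from 37 counts, at 0.34 in thinned cells. Among 594 recomputed pool ratios of named genes it was the 1 past 1.5-fold that changed sign, and 26 others crossed the 1.5-fold line. Sign changes of ratios that lay within 1.5-fold were not counted. NK cells had the highest share in 14 of 14 settings and macrophages the lowest in 13, the exception being cells of 2000 to 5000 UMIs.

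The ratio of NK to macrophage share, 1.94, was 1.88 under the stricter cell filter (1000 genes, 10% mitochondrial), 1.95 with 1 more marker, 1.86 with median-ratio scaling, 1.95 without mitochondrial counts, 1.956 with sets weighted equally, 2.01 in thinned cells and 2.06 in cells of 2000 to 5000 UMIs. Leaving out each barcode set gave 1.91 to 1.99. The count of higher members in NK cells, 36, was 64 with median-ratio scaling and 35 to 40 with each set left out. The count of lower members in macrophages, 31, was 3 with that scaling and 26 to 35 with each set left out. The 51 pool ratios past 1.5-fold became 45 to 54 with each set left out, 43 with the stricter cell filter and in thinned cells, and 41 without the 3 members of fewest UMIs.

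The Malat1-poor ratio in mesenchymal carcinoma cells, 1.158, was 1.155 with the stricter cell filter, 1.226 with median-ratio scaling, 1.154 without mitochondrial counts, 1.165 with equal weights, 1.231 in thinned cells, 1.173 and 1.164 with Malat1 limits of 1/5 and 1/20 of the median, and 1.163 at 10000 to 20000 UMIs. With each set left out it was 1.136 to 1.172. The count of members past 1.5-fold there was 0 throughout. The cycling ratio, 1.175, was 1.169 with the stricter filter, 1.177 with a laxer one (200 genes, 25% mitochondrial), 1.258 with median-ratio scaling, 1.168 without mitochondrial counts, 1.169 with equal weights, 1.229 in thinned cells, 1.123 at 10000 to 20000 UMIs and 1.157 to 1.188 with each set left out. Rps27l in NK cells, 14.8% of its pair, was 12.3% in thinned cells, 11.02% at 2000 to 5000 UMIs and 13.5% to 15.8% with each set left out. The cause of these shifts was not tested. No paired analysis was possible because no cell can be assigned to a numbered tumor. Depth limits the 3 rarest members, with 41 or fewer counts in several lineages, such as 17 of Rpl7l1 in endothelial cells and 22 in pericytes.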
